A study of Mus musculus with 15 samples.

Results

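The 6 arrays compared here measured RNA of NIH 3T3 cells, an immortal line of mouse fibroblasts, that carried a zinc-inducible plasmid for C/EBP delta (3 arrays, called CEBPD) or for C/EBP alpha (3 arrays, called CEBPA). They were chosen by the sample titles and are 6 of the 15 arrays of the study, whose other arrays came from C/EBP beta (CEBPB) and C/EBP epsilon (CEBPE) cells and from cells with the empty plasmid (3 arrays, called vector), given here as the common background. Every group, vector included, was transfected, selected with G418 and treated with ZnSO4 for 16 h before RNA was isolated, so the groups differ by the cDNA under the metallothionein promoter and not by the metal. The cDNAs were human, the transfectants were polyclonal, and expressing clones were picked by protein blot. The labels call the arrays of a group triplicate clones and do not settle whether these were separate transfections. The p-values therefore measure the spread between cultures within a group, pooled over the 5 groups of the fit. A difference between transfected pools and an effect of the C/EBP cannot be told apart.

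C/EBPs are basic leucine zipper transcription factors that bind related DNA sites as dimers and take part in the differentiation of fat, liver and myeloid cells. In the textbook order of fat cell differentiation, C/EBP beta and C/EBP delta appear early after the hormonal stimulus, while C/EBP alpha and PPAR gamma appear later, accompany the exit from division and switch on genes of lipid storage. C/EBP delta is also a factor of the acute phase response in liver. The comparison asks which genes separate cells given the early factor from cells given the late one.

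Signals are intensities per probe set, scaled to a common array median, and a floor of 189.652 units was set under them before log2 was taken. The 3 CEBPD arrays had deposited medians of 1050.7 to 1125.1 and the 3 CEBPA arrays 1067.85 to 1133. Gapdh read 0.903 to 0.931 as a ratio of the 3' to the 5' probe set in CEBPD and 0.908 to 0.982 in CEBPA, and actin 1.16 to 1.27 in CEBPD and 1.02 to 1.25 in CEBPA. Of 12 fibroblast markers, 11 passed the signal filter and 0 differed between CEBPD and CEBPA, with summed levels of 138877 to 147653 units in CEBPD and 122286 to 153108 in CEBPA; Vim was the marker under the filter. Of the 5 adipocyte markers on the array, Retn and Cidec lay under the floor on all 6 arrays, and Adipoq and Fabp4 were under the signal filter. Lep passed the filter, at a mean of 3774 units in CEBPD and 4317 in CEBPA, and did not differ (limma adjusted p = 0.524). The 5 markers summed to 4270 to 4815 units in CEBPD and 4658 to 5245 in CEBPA, most of it from Lep. The introduced factors could not be checked in this way, because whether mouse probe sets read the human cDNAs was not tested. In RNA of whole cultures, fewer cells of a type and less RNA per cell cannot be told apart.

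CEBPD and CEBPA cells differed at 585 of the 6963 probe sets tested (8.4%; limma, adjusted p under 0.05), with 352 higher (5.06%) and 233 lower (3.35%) in CEBPD. In terms of genes, each read by its brightest probe set, 453 of 5338 differed (8.49%): 278 rose (5.21%) and 175 fell (3.28%). Here and below, rose and fell mean higher and lower in CEBPD than in CEBPA, and give no direction against vector. The shares of 5.21% and 3.28% are the background for the counts in gene lists. The differences were of moderate size for most: the median absolute log2 difference of the called probe sets was 0.80, while 116 rose and 80 fell by more than 2-fold, and 27 and 22 by more than 4-fold. Over all probe sets the median log2 difference was -0.00, and the arrays of both groups did not overlap at 26.2% of them (26.5% of genes). The count of 585 was 382 without CEBPA replicate 2 and 382 without CEBPD replicate 3.

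**Figure D1:**
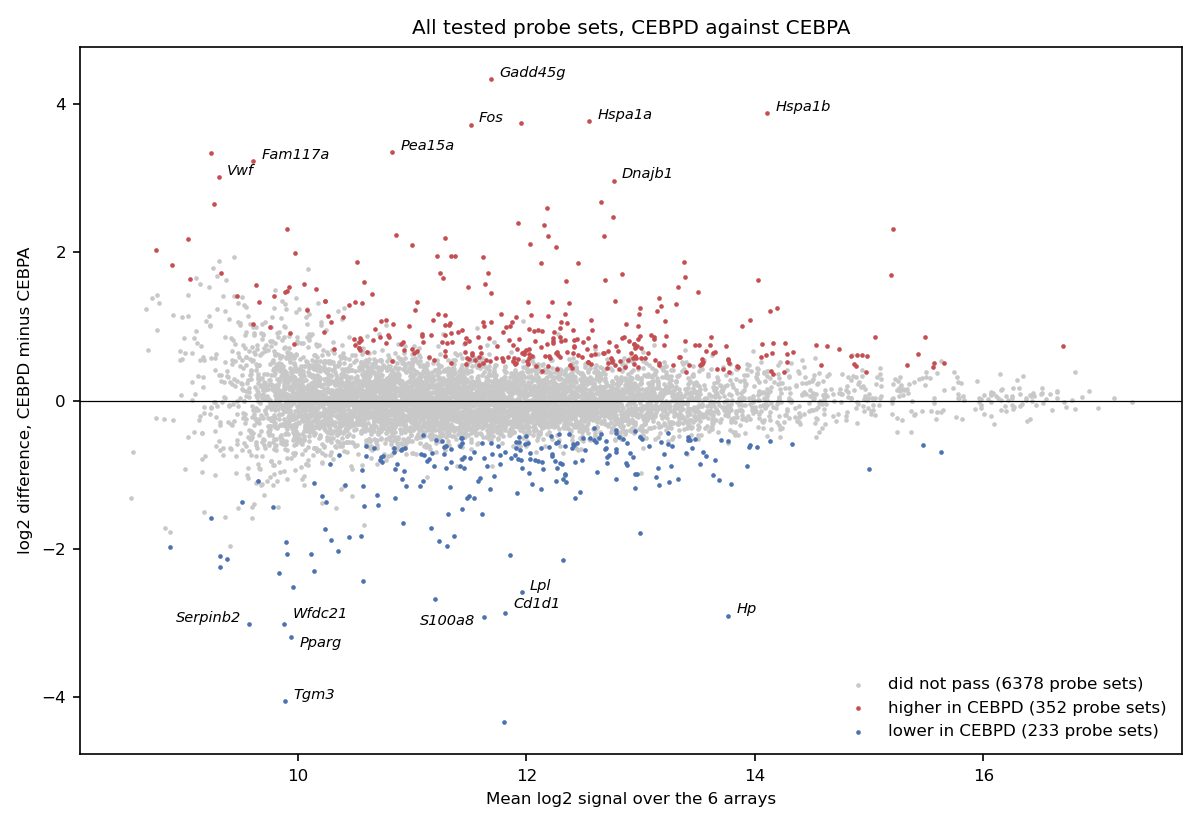
Each point is 1 of the 6963 tested probe sets, with its mean log2 signal over the 3 CEBPD and 3 CEBPA arrays on the horizontal axis and the log2 difference, CEBPD minus CEBPA, on the vertical axis; red points passed as higher in CEBPD (352), blue points passed as lower (233) and grey points did not pass. The names mark the 8 largest rises and the 8 largest falls among genes, and Hspa1b and Hp combine a high signal with a large difference.

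The largest difference of a named gene was that of Gadd45g, which halts the cell cycle after stress or DNA damage. It read 15157, 16950.2 and 12870.5 units on the CEBPD arrays, against 626, 905 and 705 on the CEBPA arrays, and 14024, 21866 and 12809 in vector. All 3 CEBPD arrays lay far above all CEBPA arrays and within the range of vector (20.2-fold higher than in CEBPA; log2 difference 4.34, SE 0.27, adjusted p = 2.56e-08). The same arrangement, with CEBPD beside vector and CEBPA below both, ran through the 15 largest rises. On the lower side, the furthest probe set was one for which the array annotation used here names no gene: it read 976.1, 506.9 and 1024 units in CEBPD, against 16751, 19099.7 and 13023 in CEBPA (log2 difference -4.34, SE 0.28, adjusted p = 3.09e-08).

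**Figure D2:**
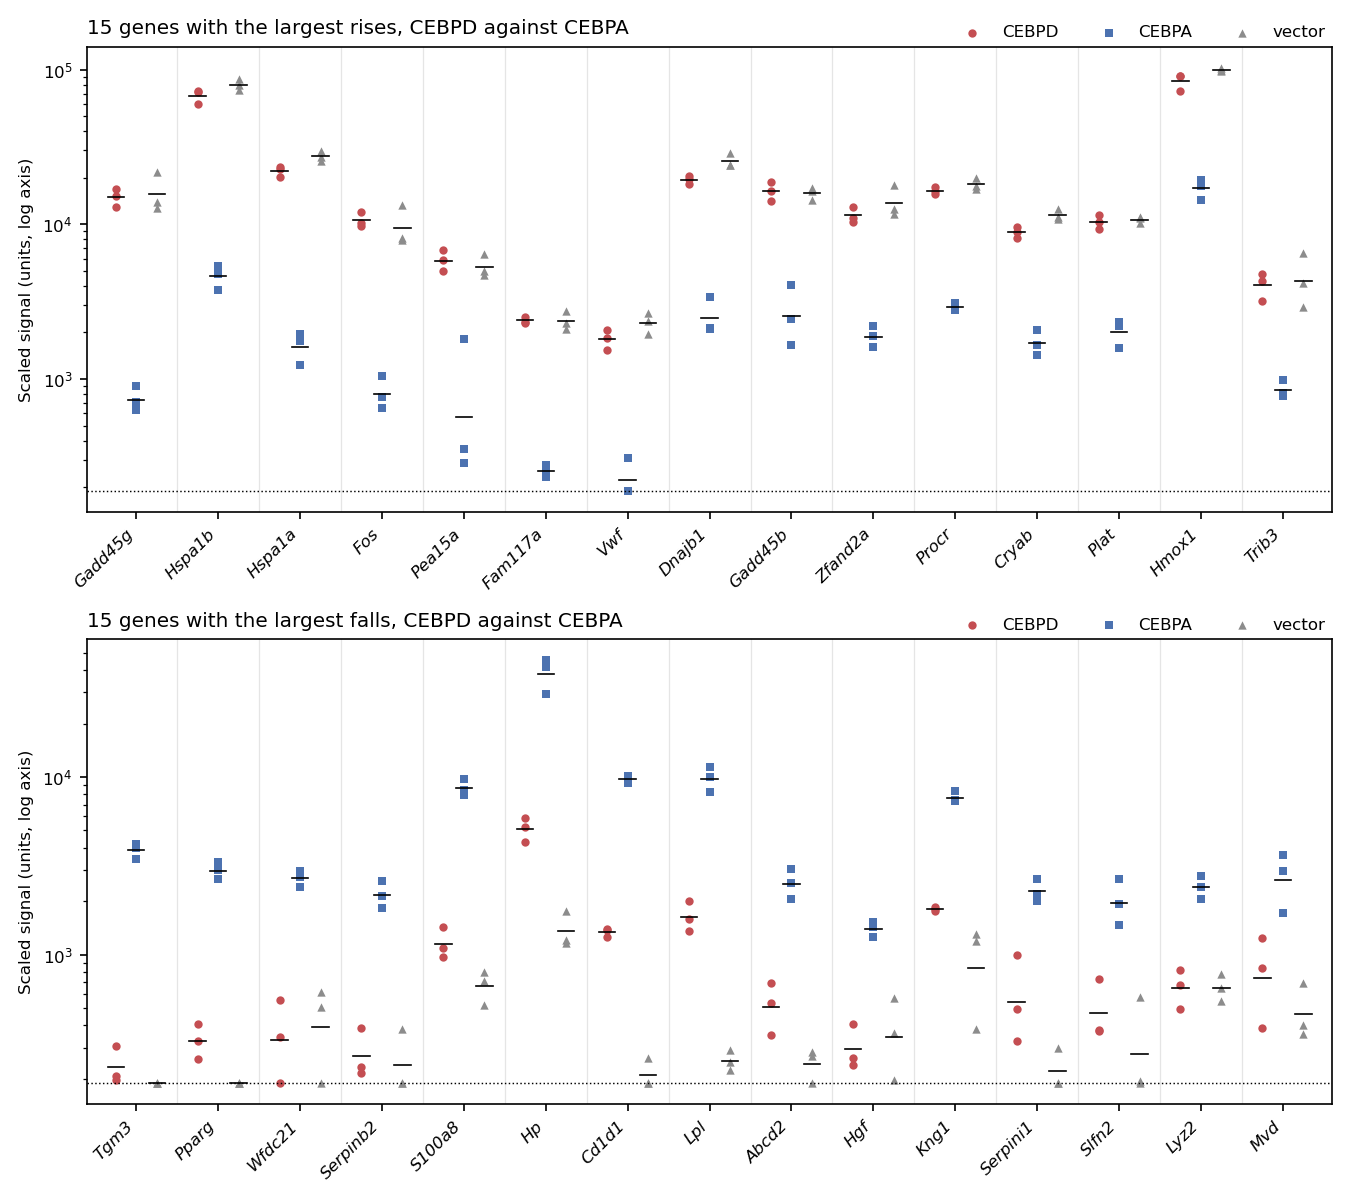
Scaled signal (log axis, units) of the 15 genes with the largest rises (upper panel) and the 15 with the largest falls (lower panel) in CEBPD against CEBPA; each point is 1 array (red circles CEBPD, blue squares CEBPA, grey triangles vector), black bars are geometric means of 3 arrays and the dotted line is the floor of 189.652 units. CEBPD points sit near the vector points for the rises, and for Lpl, Hp, Cd1d1, S100a8, Kng1, Abcd2, Serpini1, Pparg and Tgm3 they sit below every CEBPA point and above every vector point.

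Heat shock chaperones, which fold and protect proteins under stress, formed the group with the highest median difference. Of 17 measured members (19 on the array), 14 rose in CEBPD, 0 fell and 3 did not pass, and all 17 differences were positive, with a median log2 difference of 0.86 against -0.01 over all genes. The inducible Hsp70 gene Hspa1b read 60223, 72441 and 71305 units in CEBPD, against 5405, 3759.8 and 4795 in CEBPA. Each CEBPD array was at least 10 times brighter than each CEBPA array (14.7-fold in the fit; log2 difference 3.88, SE 0.14, adjusted p = 3.98e-11). Hspa1a, its near-identical neighbour, read 20362, 23488 and 22924 units in CEBPD and 1237, 1753 and 1957 in CEBPA (log2 difference 3.78, adjusted p = 5.91e-07). The probe sets of these copies may read each other's transcript, so the values are not independent and how the change divides between the copies is uncertain.

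Partners of Hsp70 were also higher in CEBPD than in CEBPA. Dnajb1, the Hsp40 that delivers clients to Hsp70, read 18258, 20605 and 19589.6 units in CEBPD, against 2109.7, 2144 and 3383 in CEBPA (log2 difference 2.97, adjusted p = 6.06e-08). Hsph1, the Hsp110 that exchanges nucleotide on Hsp70, read 64015, 71423 and 66179 in CEBPD and 22029.6, 18178 and 22387 in CEBPA (1.69, adjusted p = 1.4e-07). For both genes the arrays of the groups were well apart, with CEBPA the lower. Vector averaged 25800 units for Dnajb1 and 80425 for Hsph1, above the CEBPD means of 19484 and 67206. CEBPD against vector did not pass in either (limma adjusted p = 0.819 and 0.804). Cryab, the small heat shock protein alpha B-crystallin, differed by 2.39 on the log2 scale, and the Hsp90 partner genes Chordc1 and Stip1 by 1.46 and 0.85. Among other members that passed, log2 differences were 0.87 for Hsp90aa1, 0.86 for the mitochondrial co-chaperonin gene Hspe1, 0.51 for Hspa8 and 0.50 for Hspd1. Dnajb9, a DnaJ protein of the endoplasmic reticulum, rose by 1.95 (adjusted p = 8.85e-05), but its other probe set read 0.49 and did not pass (adjusted p = 0.363). Hspa4, Dnaja1 and Dnajb4 did not pass, at 0.14, 0.16 and 0.57. The count of 14 lay between 10 and 14 when single arrays were left out.

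The promoters of the leading pair are shown because both genes hold the same candidate heat shock element at the same distance from the start. They are the 250 bases before the annotated start (RefSeq, GRCm38.p6, on the strand of the gene), with the motif GAANNTTC, an inverted pair of heat shock units that reads alike on both strands, in capitals. The windows lie at chr17:34959239-34959488 for Hspa1b and chr17:34972157-34972406 for Hspa1a, both on the minus strand, the match begins 104 bases before the start in each, and 3 of the 250 bases differ.
Hspa1b: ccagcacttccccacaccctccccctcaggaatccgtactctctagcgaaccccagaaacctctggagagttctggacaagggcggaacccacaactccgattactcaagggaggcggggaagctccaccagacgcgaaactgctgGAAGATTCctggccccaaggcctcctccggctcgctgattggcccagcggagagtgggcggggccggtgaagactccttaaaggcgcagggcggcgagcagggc
Hspa1a: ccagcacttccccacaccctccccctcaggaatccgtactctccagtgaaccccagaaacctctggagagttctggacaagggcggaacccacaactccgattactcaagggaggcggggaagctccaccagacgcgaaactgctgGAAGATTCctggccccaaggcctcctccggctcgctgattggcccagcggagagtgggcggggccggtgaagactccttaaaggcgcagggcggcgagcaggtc
Of 14 measured heat shock chaperone genes with a promoter in the table, 5 held GAANNTTC on either strand (Dnaja1, Hspa1a, Hspa1b, Hspd1 and Hspe1), against 7.73% of 27025 genes. Dnaja1 holds the letters and did not pass, while Dnajb1 and Hsph1 rose, and a match describes the sequence and not a bound site.

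Immediate early genes, transcribed within minutes of growth factor or stress signals, were likewise more abundant in CEBPD. Of 29 measured members, 14 rose, 0 fell and 15 did not pass (median log2 difference 0.52; 24 positive and 5 negative signs). Fos, the AP-1 subunit, read 9734, 12074 and 10211 units in CEBPD, against 647, 1046 and 765 in CEBPA (13.2-fold; log2 difference 3.73, SE 0.21, adjusted p = 1.07e-08). Dusp1, a phosphatase that switches off MAP kinases, read 18289, 22599 and 20178 in CEBPD and 5794, 5367 and 5550.2 in CEBPA (log2 difference 1.86, SE 0.11, adjusted p = 2.56e-08). The 3 CEBPA arrays of Dusp1 lay within a narrow band, all below every CEBPD array. Vector averaged 9784 units for Fos and 20629 for Dusp1, near the CEBPD means of 10673 and 20355. Junb, a second AP-1 subunit, differed by 1.62 (adjusted p = 1.13e-05), and the zinc finger genes Klf4 and Egr1 by 1.34 and 1.03. Ier2 read 1.71, the antiproliferative gene Btg2 1.62 and the matricellular protein gene Ccn1 1.53 on the same scale, with adjusted p-values of 0.000182, 4.32e-07 and 4.32e-07. Not every member followed: Fosl2, Myc, Dusp2, Atf3 and Dusp6 had negative differences between -0.30 and -0.07, none of which passed. Without CEBPA replicate 2 the count of rises was 9, and without CEBPD replicate 3 it was also 9.

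**Figure D3:**
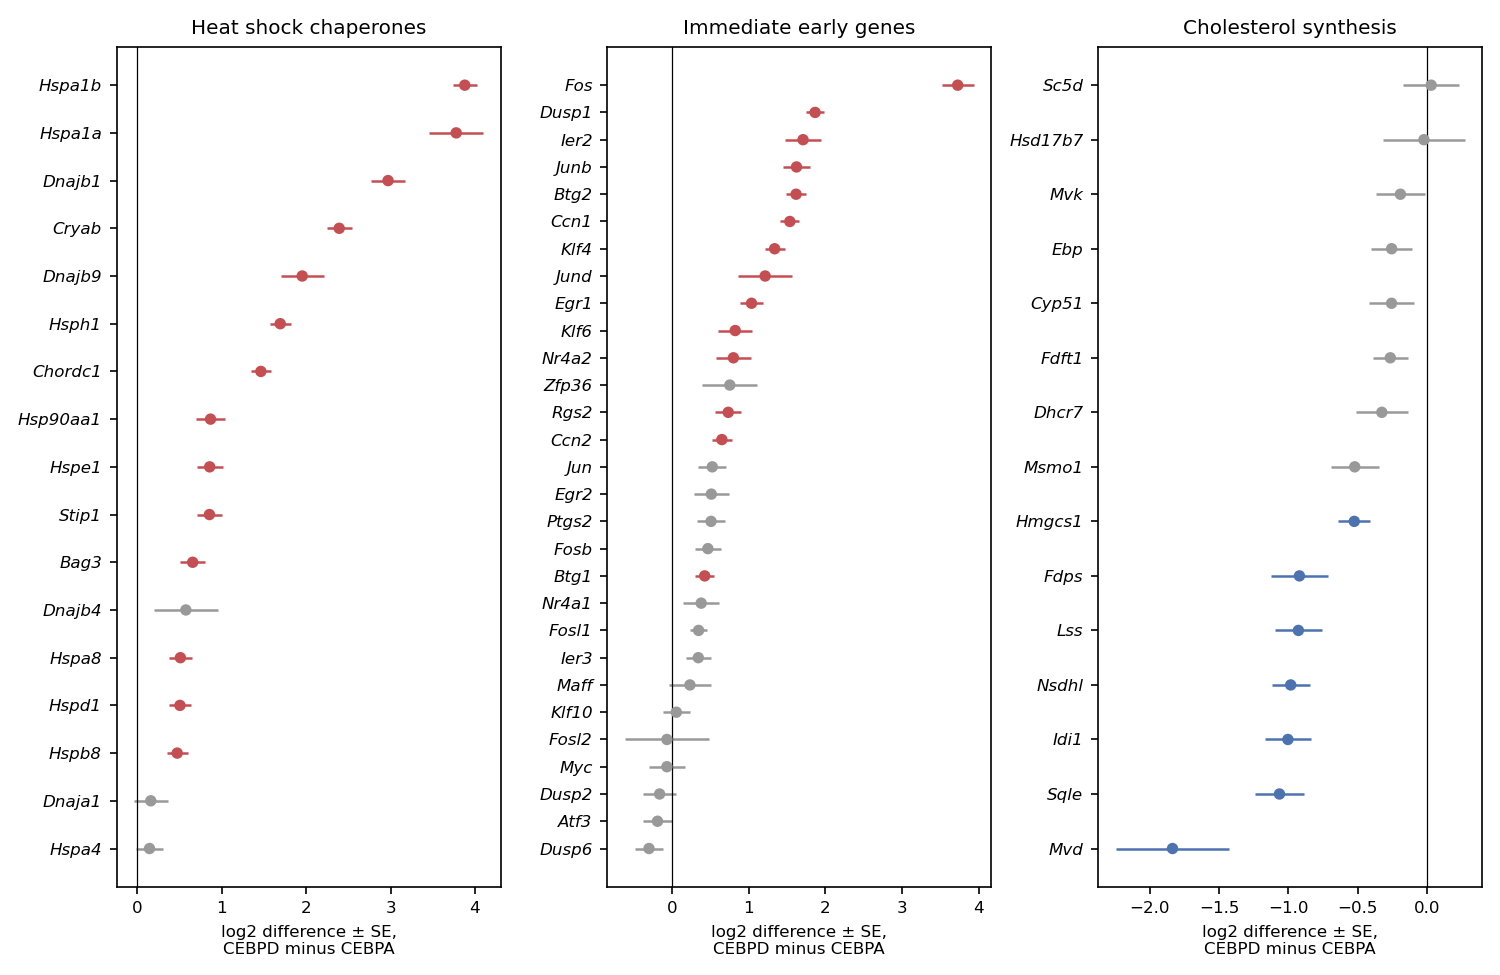
Log2 difference, CEBPD minus CEBPA, with its standard error for every measured member of 3 lists; red members passed as higher in CEBPD, blue members as lower, and grey members did not pass. All 17 heat shock chaperones lie right of 0, 24 of 29 immediate early genes do, and 14 of 15 cholesterol synthesis genes lie left of 0.

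Growth arrest genes and p53 targets counted 8 rises, 1 fall and 7 genes that did not pass among 16 measured, with a median log2 difference of 0.46. Gadd45b, a relative of Gadd45g, read 14144, 18676 and 16512 units in CEBPD, against 4077, 1664 and 2425 in CEBPA (log2 difference 2.68, SE 0.23, adjusted p = 7.51e-07), and its second probe set differed by 3.74. Relative to their mean its CEBPA arrays were spread more widely than its CEBPD arrays, without overlap. Mdm2, the ubiquitin ligase of p53, differed by 1.26 (adjusted p = 3.13e-05), and Cdkn1a, the kinase inhibitor p21, by 0.74 (adjusted p = 0.00619). The inhibitor gene Cdkn2c was the fall, at -0.91 (adjusted p = 0.0105), which did not pass when CEBPA replicate 2 or 3 was left out (0.0549 and 0.0577). Cell cycle and DNA replication genes as a list showed little: 1 of 34 rose, 0 fell, and the median was 0.05. That rise, Mcm3, was lost without CEBPA replicate 2 or 3 or CEBPD replicate 1 or 3 (adjusted p = 0.0778, 0.0574, 0.0608 and 0.0546), and the list counted 2 rises without CEBPE replicate 3.

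In the integrated stress response, phosphorylated eIF2 alpha slows translation while ATF4 and CHOP are made. Its genes were listed together with those of the unfolded protein response, and this joint list did not move as a block. Of 24 measured members of the joint list, 6 rose, 2 fell and 16 did not pass (median 0.12). Ppp1r15a, which reverses eIF2 alpha phosphorylation, read 13107, 15654 and 13841 units in CEBPD, against 2586, 3132 and 3479.6 in CEBPA (log2 difference 2.22, SE 0.15, adjusted p = 7.72e-08). Ddit3, which encodes CHOP and is itself a C/EBP family member, read 10488, 8873 and 10865 in CEBPD and 1930.2, 3281 and 2147 in CEBPA (log2 difference 2.07, SE 0.17, adjusted p = 5.91e-07). Both genes separated the groups on every array. Vector averaged 17426 units for Ppp1r15a and 10866 for Ddit3, above the CEBPD means of 14200 and 10075. Trib3, a pseudokinase induced downstream of these factors, differed by 2.24 (adjusted p = 0.000514), and the amino acid transporter subunit gene Slc3a2 by 1.25 (adjusted p = 0.00013). The falls were Xbp1 and Pdia6, genes of the unfolded protein response, at -0.50 and -0.63. Pdia6 did not pass without CEBPA replicate 3 (limma adjusted p = 0.121) or CEBPD replicate 1 or 3 (0.0785 and 0.089). Its other probe sets read -0.71 (limma adjusted p = 0.103) and -0.85 (0.000706). Leaving out CEBPA replicate 3, CEBPD replicate 1 or CEBPD replicate 3 took the falls of the list to 0, and leaving out CEBPA replicate 1 or CEBPD replicate 2 to 1.

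Because all cells had received zinc, the metal response was read separately. Hmox1, the heme oxygenase induced by metals and oxidants, read 91209, 72911 and 90778 units in CEBPD, against 17704, 14447 and 19342 in CEBPA (log2 difference 2.31, SE 0.18, adjusted p = 3e-07). The metallothionein genes themselves, whose promoter type drives the plasmid, did not pass: Mt1 differed by 0.13 (adjusted p = 0.769) and Mt2 by 0.39 (adjusted p = 0.157). Zfand2a, a proteasome-associated protein gene induced by arsenite and heat, read 11048, 12978 and 10349 in CEBPD and 1882, 1617 and 2189 in CEBPA (log2 difference 2.60, SE 0.19, adjusted p = 1.36e-07). Of 8 measured genes of the list, 2 rose and 0 fell (median 0.18); the other rise, of the zinc exporter gene Slc30a1 (0.71, adjusted p = 0.0184), was lost without CEBPA replicate 2 or 3 or CEBPD replicate 2 or 3 (adjusted p = 0.0841, 0.0509, 0.0765 and 0.0616).

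Among matrix proteases and their inhibitors 3 of 11 measured genes rose, Plat, Plaur and Mmp9, 1 fell, Serpinb2, and 7 did not pass (median 0.24). Plat, tissue plasminogen activator, read 9265, 11473 and 10382 units in CEBPD, against 1583, 2190.0 and 2321 in CEBPA (log2 difference 2.37, SE 0.21, adjusted p = 1.13e-06). Plaur, the urokinase receptor, read 10367, 10664 and 10915 in CEBPD and 3152, 2662 and 3004 in CEBPA (log2 difference 1.86, SE 0.15, adjusted p = 3.12e-07). Procr, the protein C receptor, read 15594, 17296 and 16406 in CEBPD and 2773, 2928 and 3117 in CEBPA (log2 difference 2.48, SE 0.12, adjusted p = 1.37e-09). In all 3 genes the CEBPA arrays lay far below every CEBPD array. Vwf, which encodes von Willebrand factor, read 1531, 2083 and 1849.7 in CEBPD and 130.0, 309 and 102 in CEBPA, where 2 arrays lay under the floor (log2 difference 3.02, adjusted p = 0.000245). Vwf is also 1 of 6 endothelial markers, which summed to 4245 to 5717 units in CEBPD, 1935 to 3860 in CEBPA and 5178 to 6963 in vector. Of the others, Kdr was tested and did not pass. Pecam1, Cdh5, Tek and Tie1 were under the signal filter and so untested, and with no filter they did not pass. The part of such cells in these results was not tested.

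Hbegf, an EGF receptor ligand, read 7786, 10499 and 8039.5 units in CEBPD, against 2141, 1848 and 2075 in CEBPA (log2 difference 2.11, SE 0.15, adjusted p = 1.24e-07). Kitl, the ligand of the receptor KIT, rose by 0.84 (adjusted p = 0.000448). The inhibitor of DNA binding genes, whose products titrate basic helix-loop-helix factors, rose in order of size as Id3, 2.20, Id2, 1.73, and Id1, 0.64 (adjusted p = 2.51e-06, 1.3e-05 and 0.00239). Id3 read 4602, 6703 and 5000.5 units in CEBPD, against 965, 1293 and 1274 in CEBPA, with no overlap. Vector averaged 4731 units for Id3 and 4257 for Id2, near the CEBPD means of 5435 and 4433. Smad1, a mediator of BMP signals, rose by 1.01 (adjusted p = 0.000122), so that 5 of the 16 measured members of the Id, TGF-beta, Wnt and Notch list rose and 0 fell (median 0.13). Nr1d1, the clock repressor REV-ERB alpha, rose by 1.17 (adjusted p = 5.32e-05).

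Of the remaining large rises, Pea15a, a death effector domain protein that binds ERK, read 5869, 6770.3 and 4958 units in CEBPD and 1819, 352 and 285 in CEBPA (log2 difference 3.36, SE 0.46, adjusted p = 0.000135). CEBPA replicate 1 was the high array of its group and still lay below every CEBPD array. Fam117a read 2528, 2305 and 2347 in CEBPD, against 231, 276 and 258 in CEBPA (log2 difference 3.23, SE 0.35, adjusted p = 1.06e-05). The lysosomal protein gene Cd68, a macrophage marker, read 2801, 2713 and 2918 in CEBPD and 715, 751 and 833 in CEBPA (log2 difference 1.88, SE 0.15, adjusted p = 4.2e-07), while the macrophage marker Lyz2 went the other way. The 8 macrophage markers summed to 11123 to 12967 units in CEBPD, 13637 to 14698 in CEBPA and 13169 to 14118 in vector, and Itgam and Marco lay under the floor on all CEBPD arrays; their part in the result was not tested.

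Contractile genes counted rises as well, with 6 of 13 higher, 0 lower and a median of 0.47. Smooth muscle actin, Acta2, read 2009, 2536 and 2676 units in CEBPD, against 871, 1046 and 964 in CEBPA (log2 difference 1.32, SE 0.19, adjusted p = 0.000245), and the actin-binding gene Tagln read 1507, 1812 and 1510.3 in CEBPD and 707, 304 and 887 in CEBPA (log2 difference 1.48, SE 0.33, adjusted p = 0.00894). The CEBPA arrays were the lower in both genes. The 4 other rises of the list were smaller, and the count of 6 was 2 without CEBPA replicate 2, CEBPD replicate 2 or CEBPD replicate 3, and 3 without CEBPA replicate 3 or CEBPD replicate 1.

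Genes of lipid storage and fatty acid handling were among the falls. Pparg, the nuclear receptor at the centre of fat cell formation, read 259, 326 and 409 units in CEBPD, against 2978, 2662 and 3309.9 in CEBPA, and lay under the floor on all vector arrays. The CEBPD arrays were just above the floor and the CEBPA arrays about 9 times brighter (log2 difference -3.19, SE 0.60, adjusted p = 0.00226). Its call was lost with no floor (adjusted p = 0.365), with a lower floor (0.0587) and without the arrays numbered 1 (0.0821), but in none of the fits that left out a single array. Lpl, the lipase that frees fatty acids from lipoproteins, read 1594, 1998 and 1351 units in CEBPD, against 9946, 8228 and 11343 in CEBPA and 223, 289 and 249 in vector. CEBPD thus lay between the other groups without overlapping either (6-fold lower than CEBPA; log2 difference -2.58, SE 0.23, adjusted p = 8.35e-07), and the second probe set of Lpl differed by -2.67 (adjusted p = 1.30e-05).

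Further lipid genes fell less. Abcd2, a peroxisomal carrier of very long fatty acyl chains, read 691, 355 and 535 in CEBPD and 2530.5, 2051 and 3020.3 in CEBPA (log2 difference -2.30, SE 0.40, adjusted p = 0.00122). Dgat1, which makes triglyceride from diacylglycerol, differed by -1.25 (adjusted p = 0.000787), and the elongase gene Elovl6 by -1.17 (adjusted p = 0.00209), a call lost without the arrays numbered 1 (adjusted p = 0.0739). With Lpl these were the 4 falls among 16 measured genes of fatty acid and triglyceride handling, where all 16 differences were negative and the median was -0.30. Of 10 measured adipocyte differentiation genes (24 on the array), 1 fell, namely Pparg, 0 rose and 9 did not pass (median -0.14). Without CEBPD replicate 2 the list had 2 falls and 1 rise. The fat cell marker Fabp4 did not pass the signal filter and read 314 ± 11.3 units in CEBPD and 237 ± 104 in CEBPA (SD, n = 3). In fatty acid oxidation 3 of 16 fell (median -0.32), led by Ech1 at -0.80 (adjusted p = 0.00206); leaving out CEBPA replicate 1 or 3, or CEBPD replicate 1 or 3, left 1.

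Acute phase and defence genes were the second group of large falls. Hp, the haemoglobin-binding protein haptoglobin, read 4297, 5238 and 5909 units in CEBPD, against 29182, 41723 and 45342 in CEBPA and 1769.5, 1164 and 1216 in vector. Its CEBPD arrays were above all vector arrays and below all CEBPA arrays (7.46-fold lower than CEBPA; log2 difference -2.90, SE 0.20, adjusted p = 7.72e-08). Kng1, kininogen, read 1772, 1803 and 1846 in CEBPD and 8289, 7336 and 7389.9 in CEBPA (log2 difference -2.08, SE 0.34, adjusted p = 0.000773). The serum amyloid gene Saa3 read 1449, 958 and 954 in CEBPD, against 3199.6, 3573 and 3545 in CEBPA (log2 difference -1.65, SE 0.27, adjusted p = 0.000787), and the copper carrier gene Cp fell by 0.91 on the log2 scale (adjusted p = 0.00866). With these, 4 of 7 measured genes of the acute phase list fell and 0 rose (median -0.91). Only 7 of the 17 genes of this list on the array passed the signal filter, and with no filter 5 fell and the median was -0.19. Ptx3, Lcn2 and Saa2, the members that did not pass, differed by -0.21, 0.11 and -0.19.

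S100a8, a calcium-binding protein of neutrophils, read 975, 1433 and 1087 units in CEBPD, against 8457, 7961 and 9759 in CEBPA and 714, 803 and 524 in vector (log2 difference -2.92, SE 0.27, adjusted p = 2.1e-06). Lyz2, lysozyme M, read 496, 673 and 822 in CEBPD and 2788, 2064 and 2401 in CEBPA (log2 difference -1.88, SE 0.31, adjusted p = 0.00081). Both are markers of myeloid cells. The 9 granulocyte markers summed to 5722 to 6851 units in CEBPD, 15312 to 16315 in CEBPA and 6017 to 6893 in vector. Within these sums S100a8 alone averaged 1165 units in CEBPD, 8726 in CEBPA and 680 in vector. The markers Camp and Csf3r were tested and did not pass (limma adjusted p = 0.0816 and 0.467). The defining granule gene Prtn3 lay under the floor on all arrays of the 3 groups. Mpo, Elane and Ltf were under the signal filter and so untested, and with no filter they did not pass. Ltf had a positive difference, 0.59. With no filter the further markers Ngp and S100a9 passed as lower in CEBPD, at -0.97 and -1.17 (limma adjusted p = 0.00736 and 0.0234). Their CEBPD means of 145 and 159 units lay under the floor, against 377 and 531 in CEBPA. The part of such cells in these results was not tested. In the granulocyte and myeloid list 2 of 8 measured genes fell, S100a8 and Lyz2, 1 rose and 5 did not pass (median -0.34). Only these 8 of the 23 genes of the list on the array passed the signal filter. Lyz2 lay under the 1092.06 units of the filter on every CEBPD and vector array. The rise was the gelatinase gene Mmp9 at 1.33 (adjusted p = 0.0235), which did not pass without CEBPA replicate 2 or 3 (0.0794 and 0.115) or CEBPD replicate 1 or 3 (0.0819 and 0.0836). Cd1d1, which presents lipids to T cells, read 1372, 1392 and 1257 in CEBPD, against 10195, 9771 and 9228 in CEBPA and 129, 179 and 261 in vector, 2 of the vector arrays being under the floor. Its CEBPD arrays, like those of Hp and Lpl, lay between the other groups (log2 difference -2.86, SE 0.29, adjusted p = 6.58e-06). The interferon-induced genes Gbp2 and Ifi204 differed by -1.05 and -1.03 (adjusted p = 0.000283 and 0.00472; the second probe set of Ifi204 read -0.47 and did not pass). Slfn2, a schlafen gene, fell by 2.06 (limma adjusted p = 0.00888), and its second probe set read -2.52 (0.00076). The call of Slfn2 was lost without CEBPA replicate 2 (0.0593). Gbp2, Ifi204 and Slfn2 were the 3 falls among 11 measured interferon-induced and schlafen genes, of which 0 rose and 8 did not pass. The median was -0.03, with 4 positive and 7 negative signs.

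Several large falls belonged to none of these groups. Tgm3, the transglutaminase of the epidermis, read 198, 207 and 306 units in CEBPD, against 3461, 3959 and 4189 in CEBPA, and was under the floor on all vector arrays. It was the largest fall of a named gene (16.6-fold; log2 difference -4.05, SE 0.60, adjusted p = 0.000305). Serpinb2, plasminogen activator inhibitor 2, read 215, 385 and 234 in CEBPD and 2133, 2614 and 1820.3 in CEBPA (log2 difference -3.01, SE 0.61, adjusted p = 0.00425), and Wfdc21, of the whey acidic protein family, read 558, 345 and 95.2 in CEBPD and 2402, 2743 and 2953 in CEBPA, with 1 CEBPD array under the floor (log2 difference -3.02, adjusted p = 0.0086). Serpini1, neuroserpin, read 325, 494 and 994 in CEBPD, against 2196, 2015 and 2663 in CEBPA (log2 difference -2.07, SE 0.55, adjusted p = 0.0263). Its call was lost without CEBPA replicate 1, 2 or 3 (adjusted p = 0.0681, 0.0715 and 0.111) and without CEBPD replicate 1 or 2 (0.11 and 0.0846).

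The promoters of a few falls are shown because each holds the letters TTGCNNAA, a common form of the C/EBP site, within 250 bases of the annotated start (RefSeq, GRCm38.p6, strand of the gene, match on either strand in capitals). Tgm3 (chr2:130012090-130012339, plus strand) has 1 match beginning 160 bases before the start. Saa3 (chr7:46715677-46715926, minus strand) has 1 at 99 bases. Pparg (chr6:115421816-115422065, plus strand) has 2, at 215 and 16 bases, and the start in the table is 1 of several that may serve this gene.
Tgm3: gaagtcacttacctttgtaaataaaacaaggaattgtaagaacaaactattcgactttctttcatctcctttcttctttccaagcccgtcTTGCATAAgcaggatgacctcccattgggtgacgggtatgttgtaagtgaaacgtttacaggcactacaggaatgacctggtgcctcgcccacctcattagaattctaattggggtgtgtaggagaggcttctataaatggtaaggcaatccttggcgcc
Saa3: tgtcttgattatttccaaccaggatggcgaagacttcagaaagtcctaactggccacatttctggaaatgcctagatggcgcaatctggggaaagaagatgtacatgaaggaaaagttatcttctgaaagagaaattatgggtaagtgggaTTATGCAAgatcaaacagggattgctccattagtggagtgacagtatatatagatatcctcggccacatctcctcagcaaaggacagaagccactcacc
Pparg: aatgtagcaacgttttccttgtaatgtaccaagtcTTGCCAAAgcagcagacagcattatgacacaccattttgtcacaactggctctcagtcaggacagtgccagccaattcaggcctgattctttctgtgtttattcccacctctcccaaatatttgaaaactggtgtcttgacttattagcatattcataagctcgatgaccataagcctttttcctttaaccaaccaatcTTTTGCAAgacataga
The letters occurred in 10.8% of 27025 genes with a promoter in the table. They were found in 4 of the 9 largest falls with a promoter there (Pparg, Serpinb2, Slfn2 and Tgm3), in 1 of 11 of the largest rises (Procr) and in 5 of the 5 measured acute phase genes that have one (Cp, Lcn2, Ptx3, Saa2 and Saa3). Lcn2, Ptx3 and Saa2 hold them and did not pass.

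Cholesterol synthesis had the most falls of the 27 lists. Of 15 measured members, 7 fell, 0 rose and 8 did not pass, 14 of 15 differences were negative and the median log2 difference was -0.52. Sqle, squalene epoxidase, read 7904, 9648 and 9888 units in CEBPD, against 18867, 16928 and 21579 in CEBPA (log2 difference -1.06, SE 0.18, adjusted p = 0.000863). Idi1, isopentenyl diphosphate isomerase, read 8732, 9801 and 8369.7 in CEBPD and 15084, 18468 and 20712 in CEBPA (adjusted p = 0.000823). In both genes every CEBPD array lay below every CEBPA array. Lss, lanosterol synthase, differed by -0.93 (adjusted p = 0.00161), and Nsdhl, a sterol dehydrogenase, by -0.98 (adjusted p = 0.000155); the other probe sets of Nsdhl read -0.90 (adjusted p = 0.000203) and -0.19 (0.549). Hmgcs1, which makes HMG-CoA early in the pathway, fell by 0.52 (adjusted p = 0.00806).

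The other falls of the pathway were less steady. Mvd, mevalonate diphosphate decarboxylase, read 385, 1248 and 838 in CEBPD, against 1721, 2947 and 3619 in CEBPA (log2 difference -1.84, SE 0.41, adjusted p = 0.00888), which did not pass when CEBPA replicate 3 was left out (0.0534) or when no filter was set (0.0558). Fdps, farnesyl diphosphate synthase, differed by -0.92 (adjusted p = 0.00926), lost without CEBPA replicate 2 or 3 or CEBPD replicate 1 (0.0508, 0.0547 and 0.0516). Sc5d was the member with a positive difference, 0.03, and its other probe set read -0.24. The sterol element letters TCACNCCAC, on either strand, occurred in 1 of 12 measured genes of the list with a promoter in the table (Hmgcs1) and in 1.22% of all genes. None of the motifs searched contains another.

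Secreted growth factors and matrix proteins divided between the directions. Hgf, hepatocyte growth factor, read 407, 239 and 261 units in CEBPD, against 1254, 1523 and 1423 in CEBPA (log2 difference -2.25, SE 0.51, adjusted p = 0.00909). Fgf7, keratinocyte growth factor, read 2741, 3555 and 2802 in CEBPD, 4500.3, 5859.8 and 5470.2 in CEBPA and 1175, 1263 and 1242 in vector (log2 difference -0.80, SE 0.15, adjusted p = 0.00268). CEBPD again lay between the other groups for Fgf7, as it did for the neutrophil chemokine gene Cxcl5, with 5135, 6478 and 6494 units in CEBPD, 11157, 9638 and 9766 in CEBPA and 2667, 2552 and 2075 in vector (log2 difference -0.76, SE 0.13, adjusted p = 0.00108; 0.0568 without the arrays numbered 1). Ghr, the growth hormone receptor, differed by -0.79 (adjusted p = 0.00473). The growth factor list counted 3 rises and 4 falls among 21 (median 0.11), and the chemokine list 3 rises and 2 falls among 14 (median -0.08). Over all genes 5.21% rose and 3.28% fell. The chemokine rises were 1 without CEBPA replicate 1 or CEBPD replicate 2, and its falls 1 without CEBPA replicate 3 or CEBPD replicate 1 or 3.

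Among 19 matrix proteins outside the collagens, 4 fell and 1 rose (median -0.32). Postn, periostin, read 629.9, 646 and 719 units in CEBPD, against 2277, 2227 and 2109.6 in CEBPA and 986, 1272 and 944 in vector. The CEBPD arrays were the lowest and the CEBPA arrays the highest, on opposite sides of vector (log2 difference -1.73, SE 0.20, adjusted p = 2.98e-05). The small proteoglycan gene Dcn read 5099, 5865 and 4818 in CEBPD and 10332, 11687 and 13965 in CEBPA (log2 difference -1.18, SE 0.17, adjusted p = 0.000196), the large proteoglycan gene Vcan averaged 3659 ± 344 units in CEBPD and 7349 ± 907 in CEBPA (SD, n = 3; limma adjusted p = 0.00451), and Bgn, close in structure to decorin, was the rise at 0.63 (adjusted p = 0.01). The remaining fall, Hspg2, the proteoglycan perlecan, read 661, 644 and 1827 units in CEBPD and averaged 2022 in CEBPA and 2206 in vector. Here the CEBPD mean was further from vector than the CEBPA mean, but CEBPD against vector did not pass (-1.26, limma adjusted p = 0.113). The log2 difference from CEBPA was -1.13 (limma adjusted p = 0.0223). This call was lost without CEBPA replicate 2 or 3 (0.0793 and 0.0691) or CEBPD replicate 1 or 2 (0.105 and 0.116). It was also lost with array weights (0.172) and with only the arrays of the contrast (0.0787). Without CEBPD replicate 2 or vector replicate 1 the list of matrix proteins had 2 rises. Of 18 collagen genes, 1 rose and 0 fell (median 0.07): P4ha2, a collagen hydroxylase subunit, at 0.51 (adjusted p = 0.00842), lost without CEBPA replicate 2 (0.0519).

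Other lists held few calls. Glycolysis had 1 fall among 15, the phosphofructokinase gene Pfkl, which read 8839.8, 10159 and 9754 units in CEBPD and 19182, 21631 and 22132 in CEBPA (log2 difference -1.13, SE 0.15, adjusted p = 0.000105; list median -0.22), but 6 falls under quantile normalization and 3 with unscaled values. Oxidative phosphorylation had 0 calls among 32 in limma or by the methods' F-test (median -0.19; at an unadjusted p under 0.05, 1 was higher and 6 lower), with 1 rise without CEBPA replicate 2 or 3 and 1 fall without CEBPB replicate 2 or CEBPE replicate 1. Quantile normalization gave 9 falls in this list and unscaled values 6. Cytosolic ribosomal proteins had 0 among 19 in limma, also without adjustment (median 0.04). Antioxidant genes had 3 rises among 20 (median 0.27), a larger share than the 5.21% of all genes. They were led by the sulfiredoxin gene Srxn1 at 0.96 (adjusted p = 0.00108), whose second probe set read 0.23 and did not pass. The count was 1 without CEBPA replicate 2 or any single CEBPD array. A list in which few members passed is not shown to be alike in CEBPD and CEBPA.

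**Figure D4:**
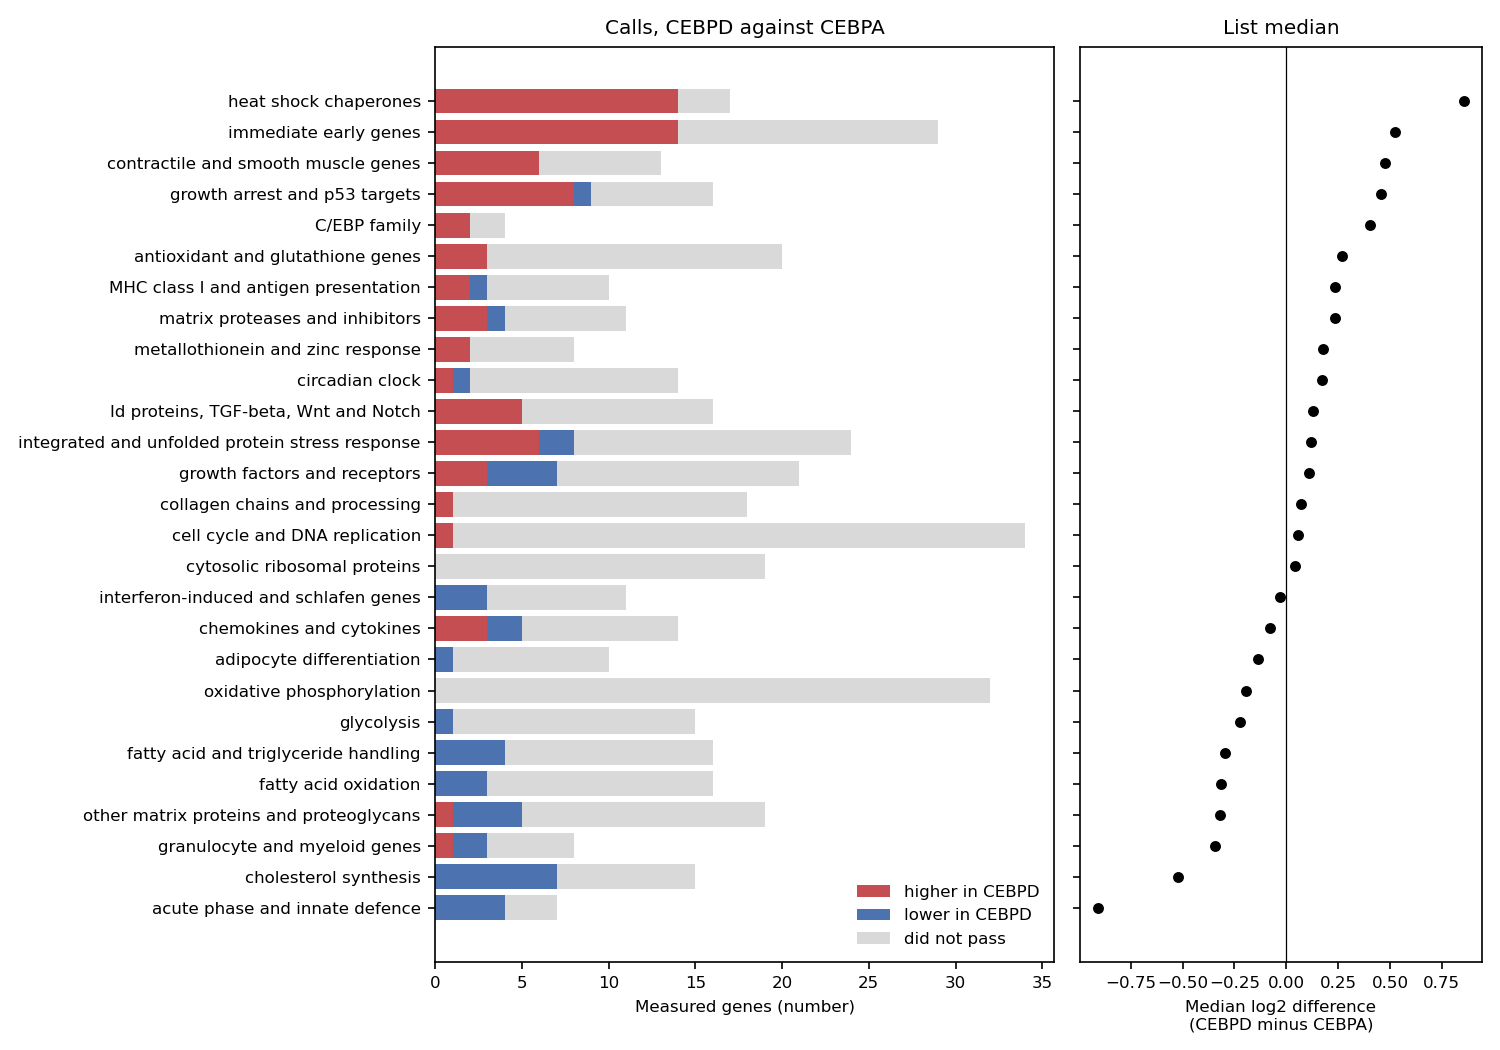
The left panel gives, for 27 gene lists, the number of measured genes that passed as higher in CEBPD (red), as lower (blue) or did not pass (grey) against CEBPA; the right panel gives the median log2 difference, CEBPD minus CEBPA, of each list. Medians run from -0.91 for acute phase genes to 0.86 for heat shock chaperones. Over all genes 5.21% passed as higher and 3.28% as lower.

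Each factor was then set beside vector for the 30 genes with the largest rises and falls. These comparisons share arrays with the direct one, so they place the values and are no separate evidence. For the 15 rises, CEBPD minus vector ran from -0.40 to 0.16 on the log2 scale and 0 of 15 passed (lowest adjusted p = 0.709), while CEBPA minus vector ran from -4.42 to -2.33 and 15 of 15 passed. For the 15 falls, CEBPD minus vector ran from -0.23 to 2.69 with 3 passing, Lpl, Hp and Cd1d1, and CEBPA minus vector from 1.88 to 5.53 with 15 passing. Vector arrays lay under the floor for several of the falls, all 3 for Tgm3 and Pparg, 2 for Cd1d1, Serpinb2 and Serpini1 and 1 for Abcd2, Slfn2 and Wfdc21, so these differences from vector depend on the floor. For Lpl the values were 2.69 (adjusted p = 1.27e-05) in CEBPD and 5.27 (adjusted p = 1.34e-10) in CEBPA. For Hp they were 1.91 (adjusted p = 0.000109) in CEBPD and 4.81 (adjusted p = 1.34e-10) in CEBPA. For Cd1d1, with 2 vector arrays raised to the floor, they were 2.67 (adjusted p = 0.000157) in CEBPD and 5.53 (adjusted p = 2.51e-09) in CEBPA, and both would be larger with a lower floor. Over the whole array, 25 of 6963 probe sets passed in CEBPD against vector (0.359%; 25 higher and 0 lower in limma; before adjustment 299 were higher and 144 lower, and the methods' F-test called 17 higher and 0 lower) and 997 in CEBPA against vector (14.3%; 499 higher, 7.17%, and 498 lower, 7.15%). Counted by genes, 19 of 5338 passed in CEBPD against vector (0.356%; 19 higher and 0 lower) and 789 in CEBPA against vector (14.8%; 398 higher, 7.46%, and 391 lower, 7.32%). The 352 probe sets higher in CEBPD than in CEBPA had median signals of 6387 units in CEBPD, 3376 in CEBPA and 6956 in vector, and the 233 lower ones 2959 in CEBPD, 5349 in CEBPA and 2442 in vector.

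**Figure D5:**
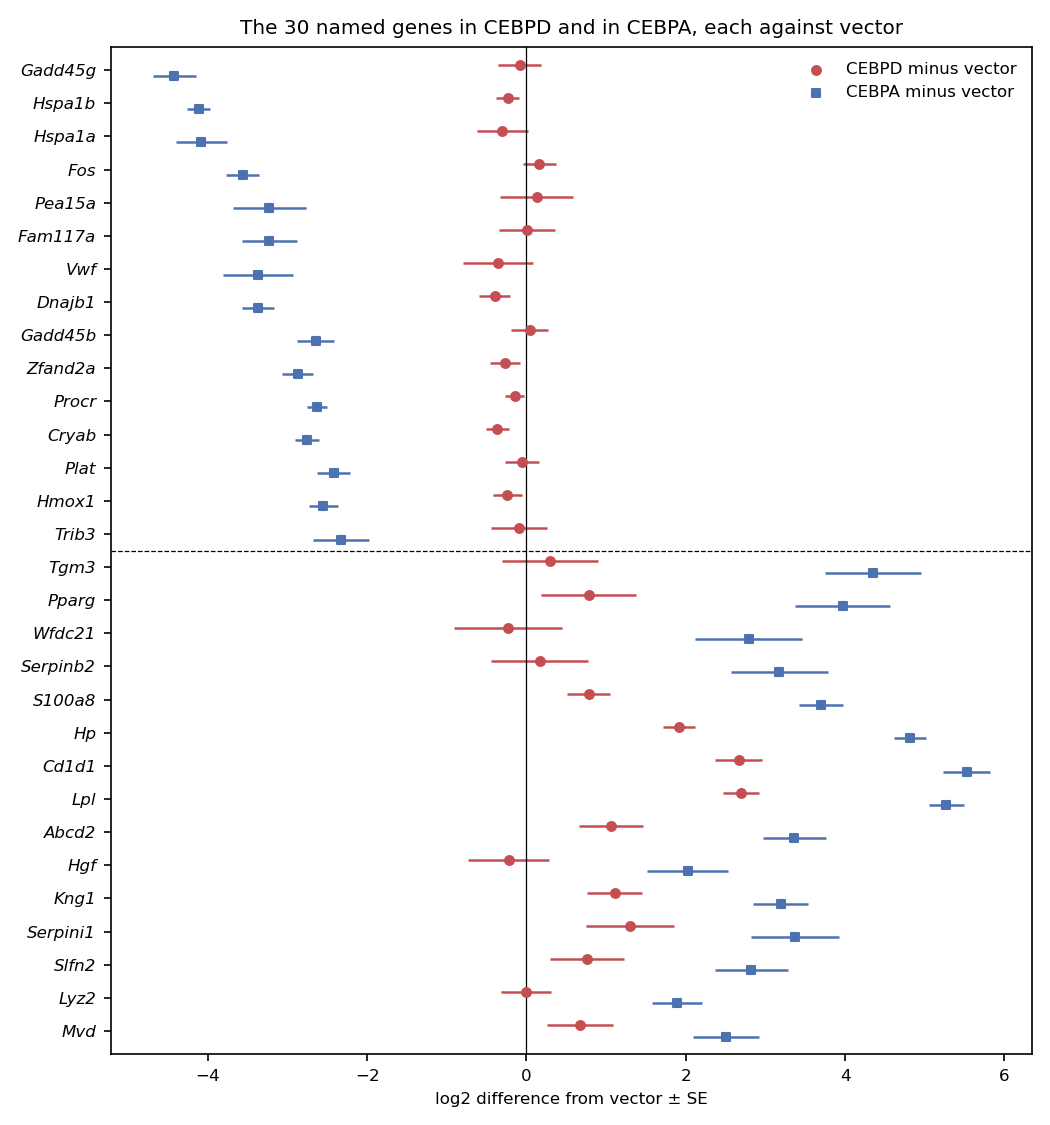
Log2 difference from vector with its standard error for the 15 largest rises (above the dashed line) and the 15 largest falls (below it) of CEBPD against CEBPA; red circles are CEBPD minus vector and blue squares CEBPA minus vector. For the rises the red circles lie between -0.40 and 0.16, and for the falls the 3 red circles furthest right are Lpl, Cd1d1 and Hp.

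Of the C/EBP genes of the mouse cells themselves, the counterpart of the introduced delta factor did not pass. Cebpd read 4454, 6469 and 5439.6 units in CEBPD, against 6320.1, 6062 and 6833 in CEBPA (log2 difference -0.25, adjusted p = 0.51), and Cebpb read 7955, 10633 and 12684 in CEBPD and 6234, 9718 and 12772 in CEBPA (log2 difference 0.16, adjusted p = 0.855), with overlapping arrays in both genes. Cebpa lay under the signal filter, at 459, 1014 and 910.5 units in CEBPD and 533, 931 and 709 in CEBPA. Cebpg, a member without an activation domain, read 3110.0, 4133 and 4584 in CEBPD and 2700.4, 2157 and 2633 in CEBPA (log2 difference 0.65, SE 0.16, adjusted p = 0.0183), a call lost without CEBPA replicate 2 or CEBPD replicate 2 or 3 (adjusted p = 0.0889, 0.0767 and 0.106). With Ddit3, described above, 2 of the 4 measured family genes rose, and 1 where the Cebpg call was lost.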

How the data were processed

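Per the labels' protocols, the authors hybridised biotinylated cRNA to MG_74Av2 arrays and processed the scans with Microarray Suite 5. The deposited unit is intensity on a linear scale, with a trimmed mean of 2501.12 to 2501.39 on each array, and no detection calls or counts come with them, so the number of arrays limits the precision. From there, 66 of 12488 probe sets were set aside as controls, each array was scaled to a common median, a floor was set at the 20th percentile of all scaled values (189.652 units) before the log2 step. Tested were probe sets that exceeded the median of all scaled values (1092.06 units) on 3 or more of the 15 arrays. A gene could therefore enter through a single group where it was high. The 15 arrays of the 5 groups entered 1 limma fit (3.58.1, R 4.3.3; lmFit, eBayes with trend, two-sided), with the Benjamini-Hochberg adjustment made over all 6963 tested probe sets and a threshold of 0.05. Errors after log2 differences are standard errors of that fit. Of 12422 probe sets, the array annotation, with symbols updated by gene ID, gave 10833 one gene, 396 several and 1193 none. The rule named the C/EBP family, the 15 called genes furthest up and the 15 furthest down whose arrays did not overlap, up to 6 called members of a list, and Cd68 as a marker; the probe set with no gene, the list members given beside these and Mt1 and Mt2 were chosen after their values were seen. The members and lists were chosen with earlier results of these data known. Alternatives were other scalings, floors and filters, a replicate block, weights per array, fewer arrays, and the univariate F-test that the labels name, run without moderation. The fit was tested on simulated data.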

Additional observations from a re-analysis of the deposited data

Results flagged for a closer look

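Genes whose CEBPD and CEBPA arrays lay on opposite sides of all vector arrays were looked for among the named genes, and 2 were found. Postn, the matrix protein periostin, read 629.9, 646.2 and 719.3 units in CEBPD, 2277, 2227 and 2109.6 in CEBPA and 986.5, 1272 and 944 in vector. The direct difference passed (log2 -1.73, limma adjusted p = 2.98e-05). Against vector, CEBPD differed by -0.67 (adjusted p = 0.382) and CEBPA by 1.06 (adjusted p = 0.00173). Gstm1, a glutathione transferase, read 8857, 8683 and 8648 units in CEBPD, 6462, 5850.5 and 6866 in CEBPA and 7866, 8281 and 7182 in vector. Its direct difference of 0.45 passed (adjusted p = 0.0315), but not without CEBPA replicate 1 or 2 (0.0636 and 0.13) or CEBPD replicate 1, 2 or 3 (0.0923, 0.0862 and 0.0912), and not without the arrays numbered 1 (0.162). Its second probe set read 0.06 (adjusted p = 0.961). Against vector, Gstm1 differed by 0.17 in CEBPD (adjusted p = 0.938) and by -0.28 in CEBPA (adjusted p = 0.16).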

How the results depend on the processing

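The results were refitted under 15 other settings and without each of the 15 arrays in turn; leaving out the 5 arrays numbered 1 was among the settings. Of the 99 named genes that passed in CEBPD against CEBPA, 0 changed direction, 67 passed in every fit, 29 were lost in at least 1 fit that left out a single array and 26 in at least 1 other; 26 of the 30 largest differences passed throughout, the exceptions being Pparg, Serpini1, Slfn2 and Mvd. The 585 probe sets became 930 with array weights and 990 with the replicate number as a block, 408 without the arrays numbered 1, and 382 to 629 when 1 array was left out. CEBPD and CEBPA arrays of the same number deviated together with correlations of 0.0472 to 0.225, and 5 of 6 arrays lay nearest their own number. Between CEBPE and CEBPB the correlation was 0.439 for arrays numbered 1, 0.428 for those numbered 2 and 0.0838 for those numbered 3. Whether arrays of 1 number share a batch was not tested. The main fit does not model the number, and the block is given here alone. CEBPD against vector, 25 probe sets, gave 39 with quantile normalization, 74 with array weights, 44 with the replicate block, 15 with the arrays of the contrast alone, 11 without the arrays numbered 1, and 13 to 29 when 1 array was left out, the lowest without CEBPD replicate 2. CEBPA against vector, 997 probe sets, gave 654 without the arrays numbered 1 and 743 to 1028 when 1 array was left out. The cause of these shifts was not tested. Signal over background limits Pparg, Tgm3, Vwf and other genes with arrays at the floor.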
